A study of Mus musculus with 6 samples.

Results

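The mitochondrial ribosomal protein genes are the nuclear genes for the protein part of the ribosome inside mitochondria, and they were taken here as every gene whose array symbol begins with Mrpl or Mrps, for the large and the small subunit. The arrays carried 76 such genes on 132 probes. A gene was kept where a probe exceeded the background level on at least 2 of 6 arrays, and its brightest kept probe stood for it. That left 73 of the 11287 genes tested, 48 of the large and 25 of the small subunit, with Mrps18a and Mrps30 counted as large, where their proteins sit despite their names. Mrpl19, Mrpl32 and Mrps14 were not kept, since their probes exceeded background on 0, 1 and 1 arrays.

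The study profiled total RNA from adult mouse hearts that lack Kdm4a (Jmjd2a in the titles), a demethylase of histone H3, and from wild-type controls on single-colour Illumina bead arrays. The general knockout was represented by 1 array, against 1 wild-type array named as its control, and neither has a stated sex. The heart-specific knockout was represented by 1 female and 1 male array, against 1 wild-type array of each sex. These 3 knockout and 3 wild-type arrays form 3 pairs, named general, female and male below. The labels give neither the strain, the allele, the way the deletion was confined to the heart, nor how many animals lie behind an array, so the spread between arrays may be technical. All differences are log2 normalized intensity, knockout minus wild type, and a value after ± is the SD over the 3 pairs.

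The mitochondrial ribosome translates the few mRNAs of mitochondrial DNA, all of which code for core subunits of the respiratory chain and ATP synthase. Its rRNAs come from mitochondrial DNA and its proteins from the nucleus, and part of these proteins have counterparts in the bacterial ribosome while others were added in mitochondria. Heart muscle is rich in mitochondria, and faults in several of these proteins cause cardiomyopathy in humans.

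The transcription of many of these genes is known to involve NRF1, GABPA and YY1. Promoter windows from RefSeq (GRCm38.p6, 300 bases spanning the annotated start) were matched to 65 of the 73 members, with 71 windows in all, and 8 members had no match. They were searched on both strands for CGCATGCG (the core of the NRF1 motif), CCGGAAGT (GABPA), AAGATGGCG (YY1) and TATAAA (the TATA box). The windows of the 3 members that were higher by the widest margin in every pair follow, since the results below turn on these genes, with matched letters in capitals. Their places are chr13:99344536-99344835 on the plus strand for Mrps27, chr10:95501900-95502199 on the minus strand for Mrpl42 and chr3:87919294-87919593 on the plus strand for Mrpl24.
Mrps27: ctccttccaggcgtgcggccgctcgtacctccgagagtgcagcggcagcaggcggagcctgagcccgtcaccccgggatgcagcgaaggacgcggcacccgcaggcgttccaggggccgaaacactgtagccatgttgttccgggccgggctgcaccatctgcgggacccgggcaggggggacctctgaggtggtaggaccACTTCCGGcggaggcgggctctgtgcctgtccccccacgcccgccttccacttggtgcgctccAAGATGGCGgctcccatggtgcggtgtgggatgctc
Mrpl42: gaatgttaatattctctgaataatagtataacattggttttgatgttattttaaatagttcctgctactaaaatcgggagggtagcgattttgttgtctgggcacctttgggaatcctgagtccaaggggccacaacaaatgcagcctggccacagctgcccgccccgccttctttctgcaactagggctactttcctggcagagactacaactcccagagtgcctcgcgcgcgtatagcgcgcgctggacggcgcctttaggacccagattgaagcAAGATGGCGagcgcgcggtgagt
Mrpl24: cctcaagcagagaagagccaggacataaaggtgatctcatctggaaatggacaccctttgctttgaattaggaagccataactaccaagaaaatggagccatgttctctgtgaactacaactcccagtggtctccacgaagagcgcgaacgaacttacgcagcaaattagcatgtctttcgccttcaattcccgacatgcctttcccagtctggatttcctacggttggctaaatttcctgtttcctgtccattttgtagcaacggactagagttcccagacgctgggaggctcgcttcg
The Mrps27 window holds the GABPA letters in reverse complement, starting 49 bases before the annotated start, and the YY1 letters at base 15 after it. The Mrpl42 window holds the YY1 letters at base 28 after the start, and the Mrpl24 window none of the 4 motifs. Among the 71 member windows, 12 (16.9%) hold the GABPA letters against 3.89% of all 32851 windows, and 8 (11.3%) the YY1 letters against 1.4%. The NRF1 letters occur in 6 member windows (8.45%) against 1.87% of all, and the TATA letters in 5 (7.04%) against 13.6%. These are matches of letters, and binding was not measured.

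The arrays correlated with each other at r = 0.972 to 0.992 over probes, and 40.4% to 43.4% of the 45281 probes exceeded background. The 3 probes for Kdm4a could not check the labels, because the brightest exceeded background on 1 array and the others on 0. The brightest Kdm4a probe read 102, 107 and 114 in the general, female and male knockouts, against 115, 119 and 123 in the matching wild types. The male wild type was the lowest of the 6 arrays for 44 of 73 members, a count that was not made over all genes. Cardiomyocyte markers were bright on every array (7 of 8 listed genes tested), with summed intensities of 183540 to 196140 in the knockouts and 176870 to 211360 in the wild types.

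Mrps27, a small subunit protein with no bacterial counterpart, had the largest mean difference of the 73 members and the only one of at least 0.5 in every pair. Its intensity was 302 in the general knockout, 285 in the female knockout and 292 in the male knockout, against 195, 188 and 196 in the matching wild types. All 3 knockout arrays lay above all 3 wild-type arrays, with 0.54 (log2) between the lowest knockout and the highest wild type. The knockout arrays averaged 293 ± 8.82 and the wild-type arrays 193 ± 4.0 (SD of intensity, n = 3 each), a 1.52-fold difference. The differences were 0.64 (general pair), 0.60 (female) and 0.57 (male).

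The interval of the Mrps27 mean difference ran from 0.37 to 0.83 (95%, limma's model, SE 0.10), and its adjusted p was 0.9998 over all genes (limma, Benjamini-Hochberg). The background left in the deposited values compresses this difference, which was 0.99 with background subtracted at an offset of 16 and 0.80 at an offset of 50. An adjusted p under 0.05 was reached by 0 of 11287 genes (0%), while 303 (2.68%) had an unadjusted p under 0.05. Mrps27 had the second smallest unadjusted p of all genes. It was picked out from earlier results of these arrays, so that rank is a description and the interval above does not allow for the choice. In the heart-specific pairs alone its difference was 0.58 (limma, adjusted p = 0.975), and the general minus the heart-specific difference was 0.05 (adjusted p = 0.988). In bulk RNA, a change in the cells present and a change in RNA per cell cannot be told apart.

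The other 72 members had mean differences from -0.22 to 0.30, so Mrps27 exceeded the next highest, Mrpl34, by 0.31. Mrps27 was the only one of all 11287 genes that was higher by at least 0.5 in every pair (0.00886%), and 3 genes were lower by that much in every pair (0.0266%). That count rests on the background left in the values: with it subtracted, 28 genes at an offset of 16 and 5 at an offset of 50 were higher by at least 0.5 in every pair, with Mrps27 still the only member. With 2 pairs the number of such higher genes was 15 without the general pair, 28 without the female pair and 3 without the male pair, and Mrps27 was the only member among them each time. Mean size alone did not set it apart as far, since 11 genes including Mrps27 had a mean at least as large. Within single pairs Mrps27 ranked second of 73 members in the general pair, first in the female pair and eighth in the male pair. The probe for Mrps27 is its only one on the array, so no second probe measured it, and only 2 kept members gave a dimmer signal.

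**Figure D1:**
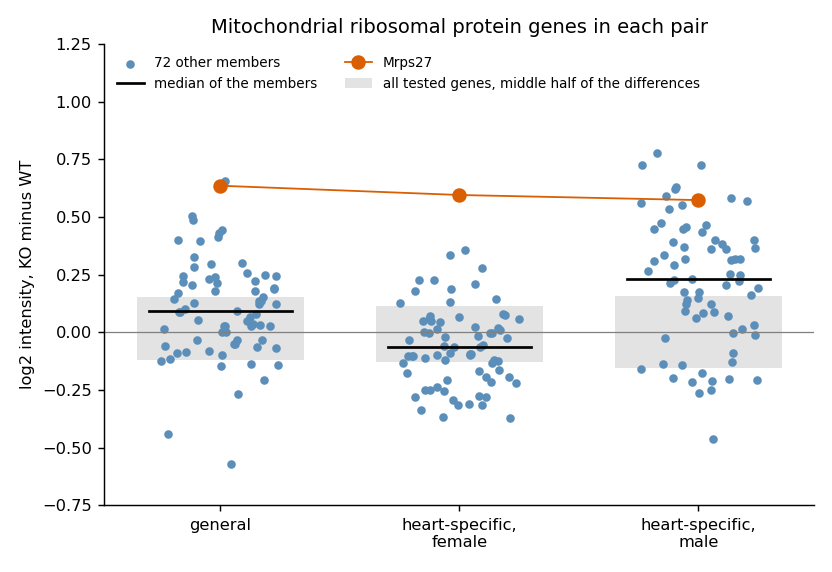
Log2 difference, knockout minus wild type, of each of 73 mitochondrial ribosomal protein genes in the general, female and male pairs, with Mrps27 joined across pairs, black lines at the members' medians and grey boxes over the middle 50% of all tested genes. Mrps27 lies at 0.64, 0.60 and 0.57, while the members' medians are 0.09, -0.06 and 0.23.

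Higher in all 3 pairs were 12 of 73 members (16.4%), against 11.3% of all genes tested, and lower in all 3 pairs were 0 members, against 10.5%. The 12 are Mrps27, Mrps21 and Mrps15 of the small subunit, and Mrpl24, Mrpl34, Mrpl35, Mrpl42, Mrpl43, Mrpl44, Mrpl46, Mrpl48 and Mrpl51 of the large subunit. With a pair left out, the members higher in both remaining pairs numbered 20 without the general pair (24.5% of all genes), 38 without the female pair (25.2%) and 15 without the male pair (24.2%). Those lower in both numbered 11 (25.8%), 3 (21.9%) and 10 (21.8%) in the same order. Of the counts upward, 20 and 15 of 73 lie near the share of all genes. All knockout arrays lay above all wild-type arrays for 3 members, Mrps27, Mrpl42 and Mrpl51 (3.14% of all genes), and below them for 0 members (3.06%). An unadjusted p under 0.05 was found for 3 members, Mrps27, Mrpl42 (0.0344) and Mrps21 (0.0369), each higher in the knockouts (2.68% of all genes in either direction and 1.49% upward), and the adjusted p was 0.9998 for all 73 (limma).

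Among the large subunit genes, Mrpl42 encodes a protein specific to mitochondria. It had intensities of 9873, 9600.4 and 10005 in the general, female and male knockouts, against 8340.3, 8425 and 7752 in the matching wild types. The knockouts lay above the wild types without overlap, with a gap of 0.19 (log2), and the mean difference was 0.27 ± 0.09. Mrpl51, also specific to mitochondria, read 377, 357 and 408 in the knockouts and 319.9, 339 and 323.5 in the wild types. Its groups were apart by only 0.07, and its mean difference was 0.21 ± 0.13.

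Mrpl24, whose bacterial counterpart binds rRNA early in assembly, read 1410.1, 1265 and 1200.5 in the knockouts and 1243.5, 1081 and 1029.8 in the wild types. Each knockout exceeded its own control by 0.18 to 0.23, but the groups overlapped because the general pair ran higher on both arrays. Mrpl44, a protein with a ribonuclease III fold that has been linked to cardiomyopathy in humans, read 1136, 1322 and 1212 in the knockouts and 1027.5, 1144 and 1075.5 in the wild types. Its differences were 0.14, 0.21 and 0.17, again with overlapping groups.

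Mrpl34 read 2216, 2053 and 2021.5 in the knockouts and 2026, 1878 and 1306 in the wild types. The male wild type was the low array, and the male difference of 0.63 stood beside 0.13 in each of the other pairs. Mrpl35 read 291, 316 and 272 in the knockouts and 216, 305 and 249.8 in the wild types. Here the general wild type was the low array, and the differences were 0.43, 0.05 and 0.12. Mrpl34 and Mrpl35 both have bacterial counterparts. The mean differences of Mrpl43 (0.08), Mrpl46 (0.08) and Mrpl48 (0.16) were smaller, with the smallest of their 3 differences under 0.05 in each gene. The other kept probes of Mrpl48, nearly as bright, were lower in the female knockout (-0.13 and -0.08).

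Of the small subunit genes, Mrps21 (a counterpart of bacterial S21) read 5184, 3677 and 3779.6 in the knockouts and 4662, 3144 and 2735 in the wild types. The general pair was the brightest on both arrays, so the groups overlapped, and the differences were 0.15, 0.23 and 0.47. Mrps15, which binds rRNA in the bacterial small subunit, had differences of 0.12, 0.01 and 0.25. It lies on chromosome 4, the chromosome of Kdm4a, with Mrpl20, Mrpl37 and Mrpl50, and of these 4 it was the only one higher in all pairs.

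**Figure D2:**
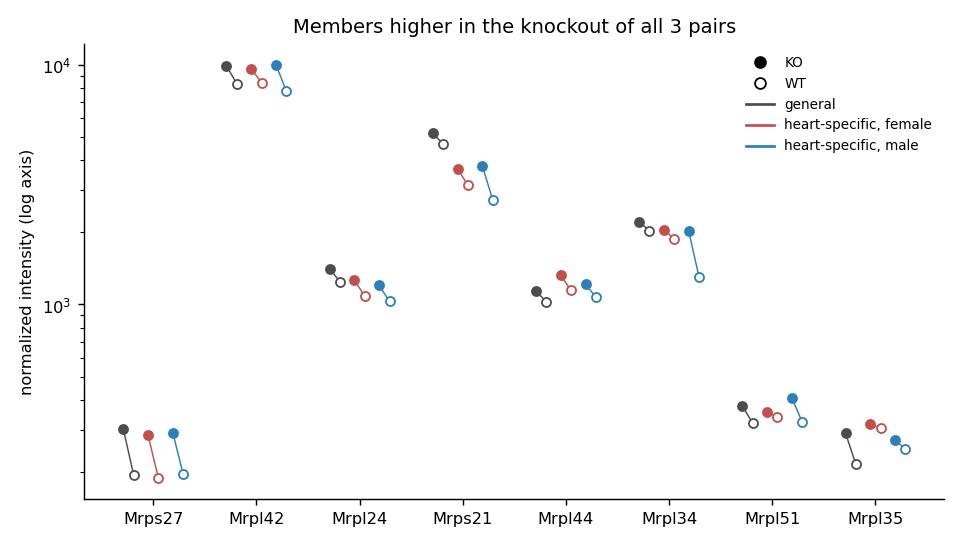
Normalized intensity (log axis) of 8 of the 12 members higher in all pairs, those with the widest margin in their weakest pair, with the knockout (filled) left of its wild type (open) in the general, female and male pairs. Mrps27 falls in the same narrow range in every wild type, whereas Mrpl34 and Mrps21 have their lowest value in the male wild type.

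Split by subunit, the large subunit genes had median differences of 0.10, -0.04 and 0.24 in the general, female and male pairs, and the small subunit genes 0.09, -0.10 and 0.23. By origin, 7 of the 26 mitochondria-specific members were higher in all pairs, as were 5 of the 45 with a bacterial counterpart (11.1%), beside 11.3% of all genes. The difference between the origins was not tested. The median differences were 0.04, 0.02 and 0.16 for the mitochondria-specific members, and 0.12, -0.10 and 0.29 for those with a bacterial counterpart. The 36 members with the brighter probes had medians of 0.13, -0.10 and 0.34, and the 37 with the dimmer probes 0.03, -0.02 and 0.21.

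**Figure D3:**
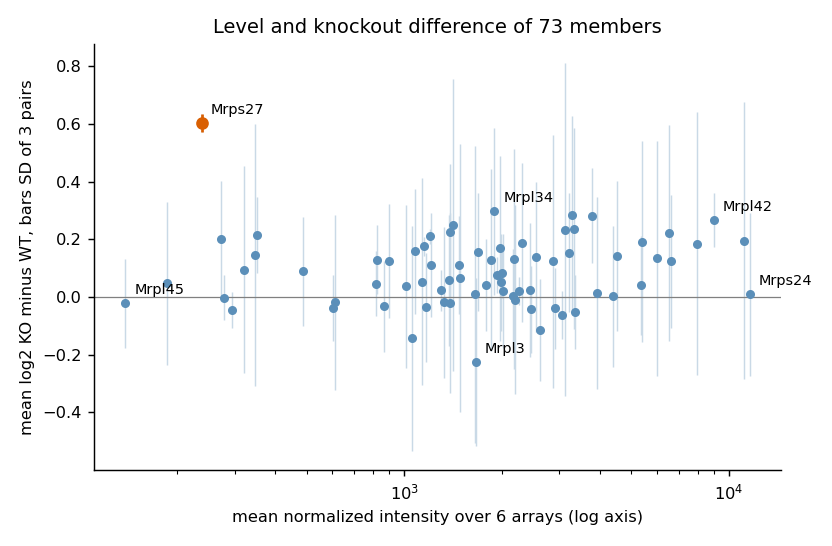
Mean log2 difference, knockout minus wild type, of 73 members against the mean intensity of their probe over 6 arrays (log axis), with bars for the SD over 3 pairs. Mrps27 (0.60 ± 0.03) lies above the others, whose means run from -0.22 to 0.30. Intensities of different probes are not amounts of transcript.

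Across the whole family the 3 pairs did not run the same way. The members' median difference was 0.09 (general), -0.06 (female) and 0.23 (male), beside 0.02, -0.01 and -0.00 over all genes. Higher in the knockout were 52 of 73 members in the general pair (53.4% of all genes), 26 in the female pair (48.8%) and 56 in the male pair (49.8%). A difference of at least 0.5 upward was found for 3 members in the general pair (2.03%), 1 in the female pair (0.939%) and 12 in the male pair (4.31%). Downward it was found for 1 member in the general pair (2.81%) and for 0 members in both heart-specific pairs (0.939% female, 2.89% male). With 1 array of each genotype, these differences within a pair have no replicate check.

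In the 2 heart-specific pairs, 36 of 73 members were lower in the female and higher in the male knockout, against 25.2% of all genes, and 6 had the opposite pattern, against 24.3%. Both pairs were higher for 20 members (24.5% of all genes) and lower for 11 (25.8%). The median of the members' log2 levels, each gene set against its mean over 6 arrays, was 0.18 in the general, -0.03 in the female and -0.06 in the male knockout. In the wild types it was 0.08, 0.04 and -0.28 in the same order. By these medians the male wild type was the low array. The general knockout was the highest array for 32 members, a count that was not made over all genes. Set against the mean of both heart-specific wild types, a comparison added after seeing the data, the members' median difference was 0.09 for the female knockout, with 52 of 73 above (50.3% of all genes), and 0.08 for the male knockout, with 45 of 73 above (49.3%). The medians over all genes were 0.0016 and -0.0034. The Mrps27 difference was then 0.57 in the female and 0.60 in the male knockout.

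A pair of related families was also lowest in the male wild type. The 58 cytosolic ribosomal protein genes, which build the ribosome outside mitochondria, had median differences of -0.20, -0.05 and 0.34 in the general, female and male pairs. The 42 respiratory complex I genes (Nduf), some of whose partner subunits the mitochondrial ribosome makes, had medians of 0.12, -0.03 and 0.26. Their median levels in the male wild type were -0.37 and -0.20, and those of all genes were 0.00 there. Cardiomyocyte markers had median differences of 0.03, 0.02 and -0.25 over 7 genes, and fibroblast markers -0.47, 0.07 and -0.36 over 5 of 6, with sums of 18935 to 19417 in the knockouts and 17915 to 24783 in the wild types. The 4 atrial markers had -2.08, 0.94 and 0.24, with summed intensities of 19540 to 26170 in the knockouts and 12855 to 42733 in the wild types. The 4 red cell markers tested of 5 had -1.09, 0.48 and 0.38, with sums of 44186 to 48740 in the knockouts and 35503 to 42437 in the wild types. These sums were mostly Hba-a1, which was higher in all pairs (0.49, 0.31 and 0.10). The others were not, with Alas2 at -1.88 and Slc4a1 at -2.41 in the general pair and Hbb-b2 at -2.34 in the male pair. In the same way, the fibroblast sums were mostly Dcn and the atrial sums mostly Nppa. The medians of endothelial (6 of 6 genes), macrophage (6 of 7), smooth muscle (3 of 4) and lymphocyte markers (1 of 4) lay between -0.13 and 0.29. The part of these in the members' differences was not tested.

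**Figure D4:**
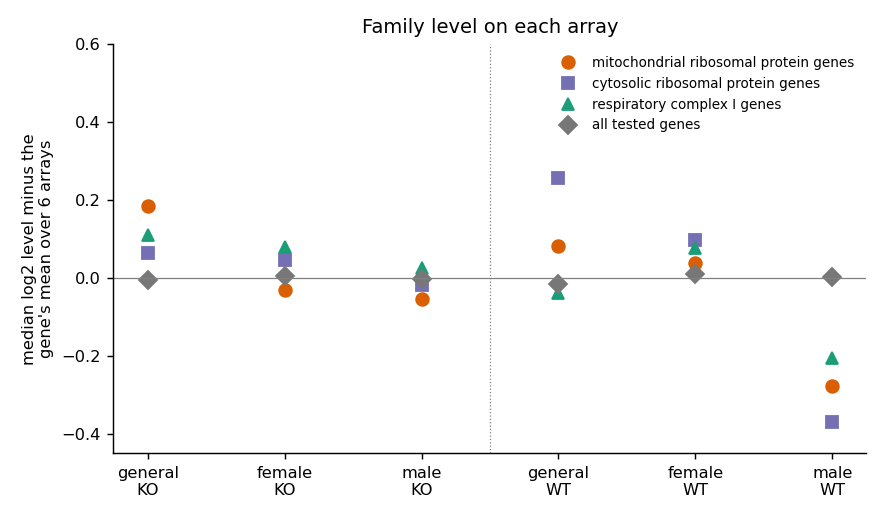
Median log2 level on each array, relative to each gene's mean over 6 arrays, of the mitochondrial ribosomal, cytosolic ribosomal and complex I genes and of all tested genes, with knockouts left of wild types. The 3 families lie at -0.28, -0.37 and -0.20 in the male wild type, where all genes lie at 0.00.

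The members that differed most within a single pair were mostly others than those above. In the general pair, Mrpl39, a large subunit protein related to threonyl-tRNA synthetase, had the largest difference upward at 0.66. It read 494, 353 and 282 in the general, female and male knockouts, against 313, 358 and 324 in the matching wild types, so the general knockout alone was high. Mrpl55 had the largest difference downward at -0.57, with 1188, 1035 and 819.6 in the knockouts and 1764, 1074 and 717 in the wild types. The general wild type was the high array there. Mrpl30 was higher by 0.51 in the general knockout, and Mrpl52 and Mrps28 were lower by 0.44 and 0.27 there.

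In the male pair, Mrpl14 (0.78), Mrpl33 (0.73) and Mrps16 (0.73) had the largest differences upward, and all 3 have bacterial counterparts. Mrpl14 read 4716, 3130.4 and 2652 in the general, female and male knockouts, against 3844, 4054 and 1549 in the matching wild types. Mrpl33 read 11714, 12218 and 11744 in the knockouts, against 11176, 14099 and 7102 in the wild types. Mrps16, a protein whose loss causes a respiratory chain disorder in humans, read 1907, 1226 and 1547 in the knockouts, against 1547, 1488 and 935 in the wild types. In all 3 the male wild type was the lowest array, and the female knockout lay below its wild type. For Mrpl33 the female direction held on the brightest probe only. Its second kept probe, with a mean intensity of 8068.5 against 11111, had -0.02, 0.30 and 0.64 in the general, female and male pairs.

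For the female hearts, Mrpl47 (0.36) and Mrpl9 (0.33) followed Mrps27 upward, and Mrpl14 (-0.37), Mrps17 (-0.37) and Mrpl30 (-0.34) had the largest differences downward. Mrpl47 read 1632, 1599 and 1284 in the knockouts, against 1688, 1249 and 997 in the wild types. A dimmer kept probe of Mrpl47, with a mean intensity of 340, was lower in the female knockout (-0.21). The downward end of the male pair was Mrpl3 (-0.46), Mrpl1 (-0.26) and Mrpl9 (-0.25). A dimmer kept probe of Mrpl9 was higher in the male knockout (0.11). Mrpl3, a core protein of the large subunit whose human gene has been linked to cardiomyopathy, read 1697, 1455 and 1457 in the knockouts, against 1583, 1807 and 2005 in the wild types. On this probe both heart-specific pairs ran downward, but a second bright probe of Mrpl3 had 0.58 in the female pair and -0.56 in the male pair. The heart-specific difference of Mrpl3 was -0.39 on the brightest probe and -0.15 with the mean of its kept probes.

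After adjustment, limma called 0 members in the heart-specific fit (0% of all genes) and 0 for the difference between lines. In the heart-specific fit 4 members had an unadjusted p under 0.05 (4.47% of all genes), and they are named here after their values were seen. They were Mrps27 (0.58), Mrpl3 (-0.39), Mrpl47 (0.36) and Mrps21 (0.35). The dimmer kept probe of Mrpl47 had -0.21 in the female pair and 0.23 in the male pair. For the general minus heart-specific difference there were also 4 (6.43%), Mrpl39 (0.77), Mrpl55 (-0.64), Mrps25 (0.59) and Mrpl1 (0.59). Other kept probes of Mrps25 and Mrpl1 differed less in the general pair. Mrps25 had 0.49 on its brightest probe there, and -0.04 and 0.19 on the others. Mrpl1 had 0.44 on its brightest probe and 0.05 on the other. The smallest adjusted p among members was 0.58, for Mrpl39, and the test called 9 of all genes (0.0797%).

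The members with the brightest probes were Mrps24, Mrpl33 and Mrpl42, and those with the dimmest kept probes were Mrpl45, Mrpl57 and Mrps27. Mrps24 read 15552, 10506 and 9618 in the knockouts and 13396, 13044 and 8826 in the wild types, with a mean difference of 0.01 ± 0.28. Mrpl45, a protein on the side of the large subunit that faces the inner membrane, read 130.03, 155 and 128 in the knockouts and 135, 140.4 and 143 in the wild types. That is little above the background level of 121 to 124, which compresses differences of dim probes.

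Several kept probes were present for 26 of the 73 members, and in 15 of the 26 the probes' mean differences had opposite signs. That share was not counted over the 4344 genes with several kept probes, so it cannot be called particular to the members. The median gap between a gene's highest and lowest probe mean was 0.113. The widest gaps of this kind were in Mrpl3 (-0.22 on the brightest probe and 0.16 on the highest), Mrpl51 (0.21 and -0.08 on the lowest), Mrpl47 (0.22 and -0.04) and Mrps15 (0.13 and -0.11). The difference of Mrpl51, 1 of the 3 members without overlap, therefore was not seen on all of its probes. Of all 113 kept probes of the members, the Mrps27 probe was the only one higher by at least 0.5 in every pair, and 20 probes were higher in every pair. The share higher in every pair was not counted over the kept probes of all genes.

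The wider machinery of mitochondrial gene expression was followed in lists of known genes, and none of their genes reached an adjusted p of 0.05 (limma). Of all genes tested, 11.3% were higher and 10.5% lower in all pairs, which the counts below stand beside. Of mitoribosomal proteins named otherwise, Dap3, Chchd1, Gadd45gip1 and Ptcd3 were tested, and 0 had the same sign in all pairs. Of 12 translation factors tested, 0 were higher in all pairs and Tufm, the elongation factor that brings aminoacyl-tRNA, was lower (-0.09 ± 0.05). Among 16 genes of mitochondrial aminoacyl-tRNA synthesis, Vars2 was higher (0.18 ± 0.19) and Aars2 lower (-0.17 ± 0.06) in all pairs. Among 17 genes of ribosome assembly and rRNA modification, Mrm1, an rRNA methyltransferase, was higher (0.21 ± 0.05), as was Mtg1 (0.07 ± 0.08), and the GTPase Mtg2 was lower (-0.21 ± 0.22).

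Of the 13 genes of mitochondrial transcription and its regulators, 3 were higher and 2 lower in all pairs, against 11.3% and 10.5% of all genes. Ppargc1b, a coactivator of nuclear genes for mitochondria, read 2145, 3185 and 2450.4 in the general, female and male knockouts, against 1759.9, 2145 and 1863.5 in the matching wild types. Each knockout exceeded its control, with a mean of 0.42 ± 0.14, but the groups overlapped. Slirp and Lrpprc, which together bind and stabilise mitochondrial mRNAs, had opposite signs in all pairs, at 0.33 ± 0.30 and -0.34 ± 0.37. All Lrpprc knockout arrays lay below all wild-type arrays (3.06% of all genes), but by only 0.03 (log2). The Lrpprc differences were -0.16, -0.11 and -0.77 in the general, female and male pairs. Polrmt, the mitochondrial RNA polymerase, had 0.08 ± 0.02. Ppargc1a had 0.79, -0.75 and -0.57, and so changed sign between lines.

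The tested genes beside Mrps27 on chromosome 13 did not show its difference in all pairs, though some of them lay near background. Of the 5 tested genes on either side, in the order of GRCm38.p6, Btf3 was higher in all pairs (0.06, 0.03 and 0.12) and Ankra2 lower (-0.10, -0.18 and -0.54). The other 8, from Fcho2 to Serf1, had mixed signs, and none had knockout and wild-type arrays apart. Of these, Zfp366 read 102 to 137, Cartpt 113 to 126 and Bdp1 122 to 138. That is near the background level of 121 to 124, where a difference could hardly be seen. Ptcd2, the nearest tested gene before Mrps27, had 0.37, -0.06 and -0.56. The other members on chromosome 13, Mrpl36 and Mrps30, had mean differences of 0.05 ± 0.17 and -0.05 ± 0.13.

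**Figure D5:**
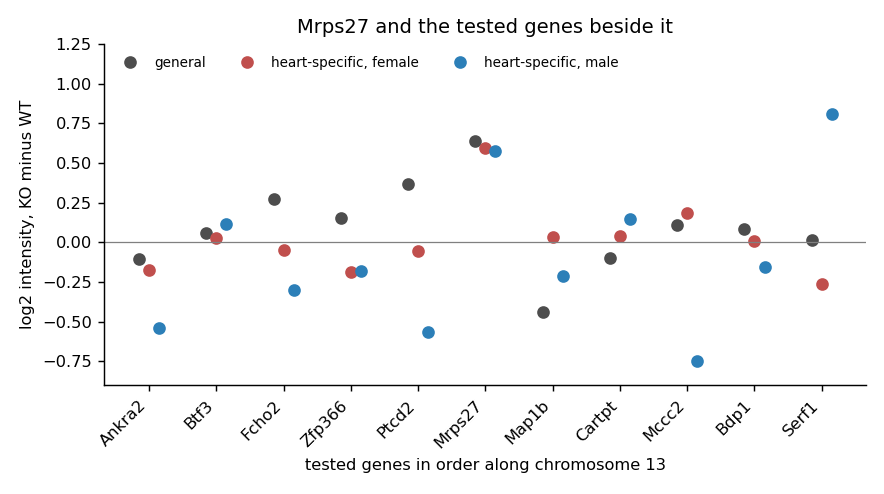
Log2 difference, knockout minus wild type, in the general, female and male pairs for Mrps27 and the 5 tested genes on each side of it along chromosome 13. Mrps27 lies at 0.57 to 0.64, while Btf3, the only neighbour higher in all pairs, lies at 0.03 to 0.12.

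Likeness of profile was measured as Pearson's r with Mrps27 over the 6 arrays after each pair was centred on its mean. Centring leaves only the difference of each pair, so r is high wherever these differences are upward and even. The most alike members were Mrpl24 (0.99), Mrpl44 (0.98), Mrpl42 (0.96), Mrpl51 (0.89) and Mrps21 (0.89). Their mean differences were 0.18 to 0.28, against 0.60 for Mrps27. All of these members were already listed above as higher in every pair, so r adds no separate evidence on them. Over all genes the most alike were Tmc6, Trps1, Hacl1, Ints9 and Alkbh8, with means of 0.08 to 0.16. An r of at least 0.9 was reached by 3 of 72 members (4.17%) and by 489 of 11286 genes (4.33%), and the measure ignores the size of a difference.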

How the data were processed

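Total RNA of hearts was labelled with biotin and hybridised to 6 Illumina arrays, per the labels' protocols. The deposited values are linear intensities that the authors exported from GenomeStudio, as the submitters' processing notes have it; its version and options are not given here. The sorted intensities of the deposited columns agreed to within 2.31%, as after quantile normalization, and background was left in, which compresses differences of dim probes. A further table has 12 columns whose numeric headings fit no title, and these were not used. The background correction and detection p-values planned from it gave way to log2 of the deposited intensities.

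Probes were named from the platform annotation, symbols were updated through gene IDs, and gene order and promoters came from RefSeq GRCm38.p6. The 95th percentile of 1528 olfactory, vomeronasal and trace amine receptor probes (121 to 124) served as background on each array, and a probe was kept above it on at least 2 of 6 arrays. The test was limma 3.58.1 in R 4.3.3 with the pair as a block, Benjamini-Hochberg over 11287 genes, at 0.05. Its code was run on simulated data with independent noise per gene, which leaves out shifts that genes share on an array. Residual degrees of freedom were 2 (prior 5.31), and 1 (prior 5.75) in the fit by line. Pairs come from the titles, and deviations from the genotype means correlated within each pair (r = 0.34, 0.33 and 0.35). Any difference between the lines enters these r as well, so they do not test the pairing. Flipping the signs of 3 pairs cannot give an exact two-sided p below 0.25. Precision is limited by the number of arrays.

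Members and lists were chosen with earlier results of these data known. The genes named were Mrps27, members with the same sign in all pairs (at most 8 per direction in full), the 3 largest per direction in each pair, the 3 brightest and dimmest, up to 4 with disagreeing probes, up to 3 per list, the 5 neighbours on each side and the 5 most alike profiles. Members named for an unadjusted p were picked after their values were seen, as were Mrpl53, Mrps6, Mrps10, Mrps18a, Ppargc1a, Mrpl36, Mrps30 and the members on chromosome 4. Alternatives covered the pair block, background subtraction, the probe rule, the filter, array centring, a variance trend and each pair left out. Mrpl41 and Mrps36 were not analysed here.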

Additional observations from a re-analysis of the deposited data

Results flagged for a closer look

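Some members differed in opposite directions in the heart-specific pairs of the 2 sexes, by at least 0.25 (log2, knockout minus wild type) each way. With 1 pair per sex the difference was not tested. There were 8 such members, 7 of them higher in the male and lower in the female knockout. The share of all genes past the same cut was not counted, so this count cannot be called particular to the members. Mrpl14 was 0.78 in the male pair and -0.37 in the female pair. Mrps16 was 0.73 in the male pair and -0.28 in the female pair. Mrps6 had 0.58 (male) and -0.32 (female), Mrpl53 0.56 and -0.25, and Mrps18a 0.45 and -0.29 in the same order. Mrpl30 was 0.38 in the male pair and -0.34 in the female pair. Mrps10 had 0.32 (male) and -0.28 (female). Mrpl9 ran the other way, with -0.25 in the male pair and 0.33 in the female pair. That held on its brightest probe only, since a dimmer kept probe was higher in both, at 0.11 (male) and 0.28 (female). The median over all 73 members was 0.23 in the male pair and -0.06 in the female pair. The male wild type was the lowest of 6 arrays for 44 members, which was not counted over all genes. Against the mean of both heart-specific wild types the members' medians were 0.08 for the male and 0.09 for the female knockout.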

How the results depend on the processing

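The Mrps27 difference over 3 pairs stayed positive in 12 alternatives (0.58 to 0.99), with limma's adjusted p between 0.53 and 0.9999, and it was the only member of at least 0.5 in every pair in each. Without the replicate block, which the titles give, it was 0.60 (adjusted p = 0.9998), and the block changed no other call. Of 504 values of single members, 484 kept their direction and their side of the threshold and 20 changed sign, and the cause was not tested.

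Genes with an unadjusted p under 0.05 numbered 455 with background subtracted at an offset of 16, 488 with every kept probe and 600 with no filter, against 303. With every kept probe, 20 member probes were higher and 1 lower in every pair, which was not counted over the kept probes of all genes. Leaving out 1 pair gave 15 to 38 members higher in both others and 3 to 11 lower. Genes higher by at least 0.5 in every pair numbered 28 at an offset of 16, 5 at an offset of 50 and 3 to 28 with a pair left out. Genes past the heart-specific test numbered 1 at an offset of 50, with every kept probe, with no filter or with a variance trend, and 2 with the mean of kept probes, against 0. Genes past the test between lines numbered 28 with a variance trend, against 9. Against the mean of both heart-specific wild types, added after seeing the data, the members' median was 0.0934 for the female knockout, against -0.0638 in its pair, and 0.0785 for the male knockout, against 0.231.

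The sign of Mrpl9 turned with the mean of its probes (0.0610), and those of Mrpl52 (-0.0011) and Mrps24 (-0.00066) with arrays centred on the median. With 1 pair left out in turn, the mean difference ran from -0.312 to 0.0695 for Mrpl55, -0.194 to 0.120 for Mrps28, -0.111 to 0.319 for Mrpl39, -0.0954 to 0.204 for Mrps17, -0.199 to 0.0936 for Mrpl9, -0.143 to 0.210 for Mrpl1. It ran from -0.0358 to 0.210 for Mrpl57, -0.0940 to 0.170 for Mrps24, -0.271 to 0.233 for Mrpl52, -0.0391 to 0.535 for Mrpl14, -0.0693 to 0.397 for Mrpl33 and -0.105 to 0.0464 for Mrpl45, and these 12 members changed sign under at least 1 such setting. Dim members such as Mrpl45 lie near background, where signal limits what can be seen.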
